A study of Mus musculus with 20 samples.

Results

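Sgk1 and a group of genes that carry salt across the intestinal epithelium were examined in crypts of the mouse small intestine. The group comprised Sgk1, Nedd4l, Scnn1a, Slc9a3, Slc26a3, Slc26a6, Slc13a2, Cftr and Atp1b1, taken by gene symbol. Of these 9 genes, 8 had a row among the 23020 genes of the deposited table, and Slc26a6 was not analysed here. Of the 8, 7 had a mean high enough to be tested, and Slc9a3 lay below that minimum. The members were selected on measured values: Sgk1 was higher in Xiap-/- crypts than in WT crypts of mice housed apart, and Slc13a2 was lower in co-housed WT crypts than in WT crypts of mice housed apart. Those 2 differences are therefore given as descriptions, with no test, and nothing rests on them. The tests on members are the genotype difference in co-housed mice and the housing difference in Xiap-/- mice. Each of these shares a group of libraries with a difference that chose a member. The housing difference of Sgk1 in Xiap-/- mice and the co-housed genotype difference of Slc13a2 are therefore descriptions too.

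The study sequenced RNA of small intestinal crypts from C57BL/6 mice, each numbered library taken here as 1 mouse, in a design of genotype by housing. Its groups were 5 Xiap-/- mice co-housed with WT mice for 4 weeks, 4 Xiap-/- mice kept with their own genotype (called housed apart here), 5 co-housed WT mice and 6 WT mice housed apart. Xiap encodes an inhibitor of cell death, and the mice carried no other allele or treatment that the labels name. The labels give neither the age of the mice, nor the cages, nor which part of Xiap was deleted. The 3' ends of polyadenylated RNA were read, and the values are normalized levels on a log2 scale, so that a difference of 1 is 2-fold if the scale is plain log2. The level of the Xiap transcript averaged 6.62 ± 0.22 and 6.38 ± 0.10 in co-housed and apart Xiap-/- crypts, against 6.67 ± 0.20 and 6.81 ± 0.17 in co-housed and apart WT crypts (SD). Housed apart, all Xiap-/- libraries lay below all WT libraries (difference -0.43 ± 0.11, SE), while 1.87% of all tested genes did not overlap there. Among co-housed mice the groups overlapped (difference -0.05 ± 0.11, SE), and why the housings differed was not tested. A 3' read can lie outside the deleted part, so these levels do not check the genotype.

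SGK1 is a kinase whose gene is switched on within minutes to hours by glucocorticoids, mineralocorticoids, salt and cell stress. In the kidney and colon it phosphorylates NEDD4-2, the ubiquitin ligase encoded by Nedd4l, which then leaves more of the epithelial sodium channel ENaC at the cell surface; Scnn1a encodes the alpha subunit of that channel. In the small intestine most sodium enters through the sodium-proton exchanger NHE3, encoded by Slc9a3, and through sugar cotransport, while the anion exchangers DRA (Slc26a3) and PAT1 (Slc26a6) take up chloride in return for bicarbonate. NaDC1, encoded by Slc13a2, takes up citrate and other dicarboxylates with sodium. CFTR is the chloride channel of fluid secretion and is strongest in crypts. The sodium-potassium pump, of which Atp1b1 encodes a beta subunit, keeps the sodium gradient that drives sodium entry.

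Promoter windows from RefSeq on GRCm38.p6, 250 bases before to 50 after a gene's start, were found for 7 of the 9 genes. Sgk1 and Slc13a2 are shown because the results turn on them. Slc26a3 is shown because it was the only 1 of the 7 windows with a match to AGAACA, a half-site of the glucocorticoid receptor. That match lies after the start, at offset 41, and a half-site is not a full binding site. Windows are written 5' to 3' on the gene's strand, and capitals mark matches to the motifs searched.
Sgk1, chr10:21994416-21994715, plus strand: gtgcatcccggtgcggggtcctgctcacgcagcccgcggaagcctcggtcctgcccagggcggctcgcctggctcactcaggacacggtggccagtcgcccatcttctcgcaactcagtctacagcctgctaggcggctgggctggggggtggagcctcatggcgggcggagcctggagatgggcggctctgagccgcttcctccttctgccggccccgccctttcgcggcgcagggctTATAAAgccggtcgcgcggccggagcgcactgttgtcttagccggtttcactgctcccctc
Slc13a2, chr11:78422185-78422484, minus strand: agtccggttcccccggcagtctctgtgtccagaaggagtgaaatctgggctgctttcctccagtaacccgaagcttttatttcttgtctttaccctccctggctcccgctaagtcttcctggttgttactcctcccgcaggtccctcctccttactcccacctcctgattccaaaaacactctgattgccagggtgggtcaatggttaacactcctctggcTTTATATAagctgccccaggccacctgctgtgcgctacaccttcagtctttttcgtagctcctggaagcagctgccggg
Slc26a3, chr12:31437969-31438268, plus strand: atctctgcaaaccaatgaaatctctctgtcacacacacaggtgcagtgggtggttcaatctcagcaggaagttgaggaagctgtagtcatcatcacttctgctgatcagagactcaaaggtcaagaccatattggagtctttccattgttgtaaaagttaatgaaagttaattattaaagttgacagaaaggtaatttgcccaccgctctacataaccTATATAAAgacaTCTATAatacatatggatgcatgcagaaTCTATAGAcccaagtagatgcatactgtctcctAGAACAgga

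The TATA box was searched as TATANA and was held by 24.7% of all 32817 windows in the table. The glucocorticoid receptor half-site was held by 19.0% of them, the CDX2 motif TTTATG by 11.9% and the motif of GATA factors, AGATAA, by 11.2%. The STAT factor motif TTCNNNGAA was held by 8.29%. Both strands were searched; matches to the TATA box can overlap one another, and no match to one motif overlapped a match to another. The capitals in the Sgk1 and Slc13a2 windows are TATA box matches, as are all those of Slc26a3 apart from the last capitals at its right end. Sgk1 has 6 start windows in the table, of which 1 is shown, and reads from the 3' end do not tell which start was used.

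Sgk1, at chr10:21882184-21999903 on the plus strand of GRCm38 in the GENCODE M21 annotation used for all positions here, stood between 6.69 and 8.08 over the 20 libraries. Its levels were 7.59, 7.03, 7.20, 7.56 and 8.02 in co-housed Xiap-/- crypts, and 7.50, 7.86, 8.01 and 8.08 in Xiap-/- crypts of mice housed apart. In WT crypts they were 7.04, 6.98, 6.89, 7.15 and 6.69 in co-housed mice, and ran between 6.71 and 7.54 with a median of 7.01 in the 6 mice housed apart. The 6 highest levels of the 20 were in Xiap-/- crypts of either housing, and the co-housed WT libraries held the narrowest range of the 4 groups.

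Among co-housed mice, 4 of 5 Xiap-/- libraries stood above all 5 WT libraries, and the remaining one, at 7.03, lay within the WT range. Sgk1 averaged 7.48 ± 0.38 in Xiap-/- crypts and 6.95 ± 0.17 in WT crypts (SD, n = 5 each), a difference of 0.53 ± 0.18 (SE, 95% interval 0.16 to 0.90; 1.44-fold on a plain log2 scale). An exact two-sided permutation test of this difference gave p = 0.0238 over 252 regroupings of the libraries. Adjusted over the 2 such tests run, it was 0.0476. These tests were chosen after the values were seen, so their p-values describe the difference and do not settle it. Without each of the 10 libraries in turn the difference was 0.39 to 0.64, with unadjusted exact p between 0.0159 and 0.0476. The 0.39 came without the Xiap-/- library at 8.02. Over all 9521 genes tested, limma did not call it (adjusted p = 0.247). By size the Sgk1 difference was number 16 of the 9521, and by p-value number 291.

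In mice housed apart, the contrast for which Sgk1 was chosen, it averaged 7.86 ± 0.26 in Xiap-/- crypts (SD, n = 4) and 7.04 ± 0.35 in WT crypts (SD, n = 6), a difference of 0.82 ± 0.18 (SE). Here 3 of 4 Xiap-/- libraries stood above all WT libraries, and the highest WT library, at 7.54, was above the lowest Xiap-/- library, at 7.50. In this contrast the share of rare genes detected above their plateau, used as a proxy for depth, averaged 17.1% ± 10.5 in Xiap-/- libraries and 7.71% ± 3.69 in WT libraries (SD), and the Sgk1 difference was 0.67 with that share as a covariate. Among co-housed mice the same share was 8.77% ± 2.77 in Xiap-/- and 8.74% ± 1.47 in WT libraries (SD).

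No housing difference of Sgk1 was called. Co-housed Xiap-/- crypts differed from those housed apart by -0.39 ± 0.19 (SE, 95% interval -0.78 to 0.01; limma adjusted p = 0.453), and the groups overlapped, with only the co-housed libraries at 7.03 and 7.20 below all 4 libraries housed apart. Sgk1 was chosen for being high in those libraries housed apart, which favours a negative value here, so this difference is a description. In WT mice the difference of co-housed from apart was -0.09 ± 0.17 (SE). The genotype difference co-housed minus that housed apart was -0.29 ± 0.26 (SE), given as a description since it contains the contrast that chose Sgk1.

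**Figure D1:**
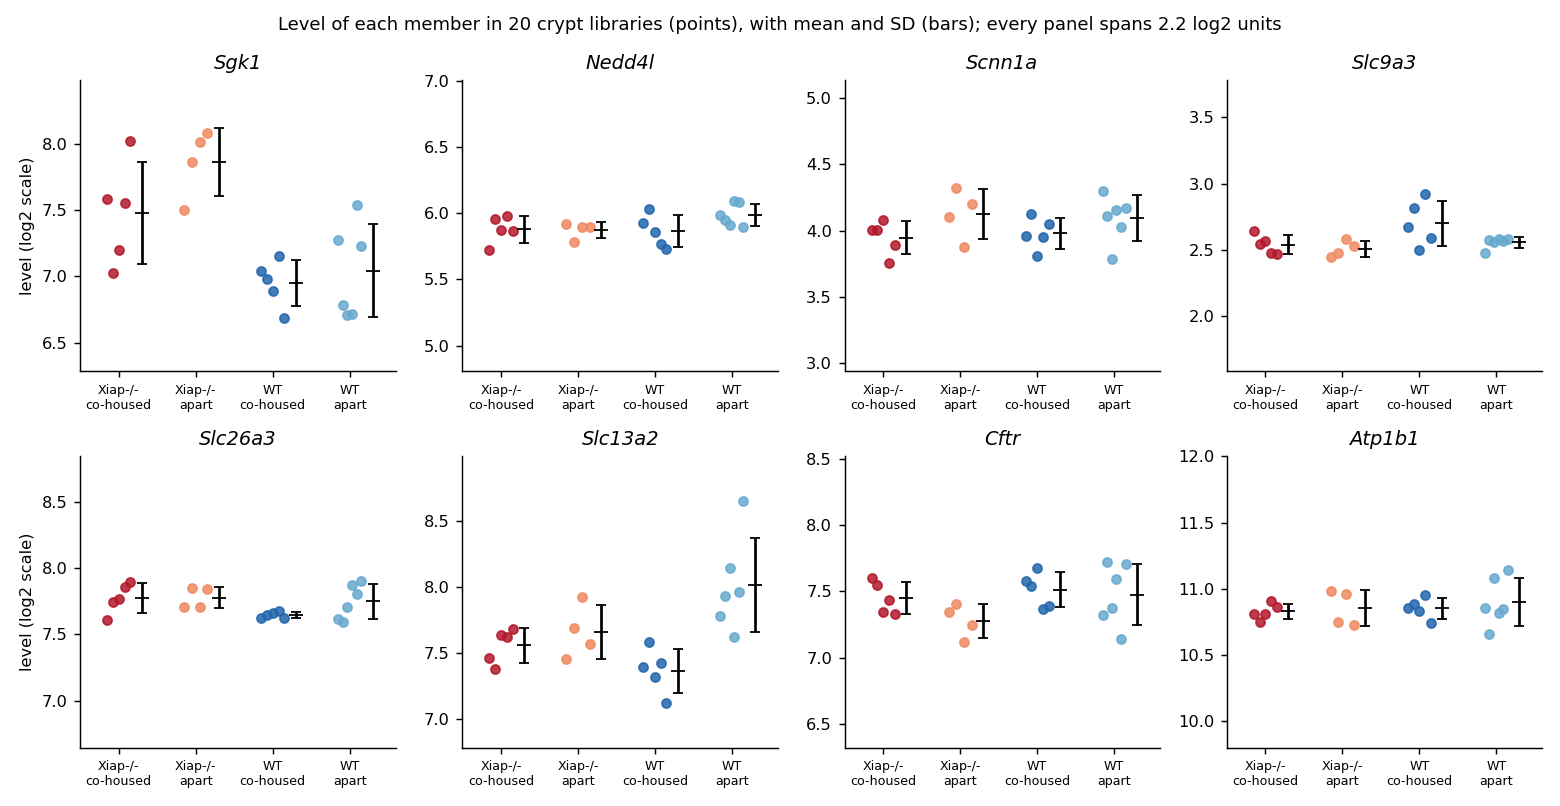
Level of each of the 8 genes with a row in every library, on the log2 scale of the deposited values (vertical axis), by group (horizontal axis: Xiap-/- co-housed, Xiap-/- housed apart, WT co-housed, WT housed apart). Points are libraries, and the bar and whisker are the mean and SD; Sgk1 and Slc13a2 are spread most widely, and all 5 co-housed WT libraries lie below the 6 WT libraries housed apart for Slc13a2.

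Nedd4l and Scnn1a, the ligase gene and the sodium channel gene downstream of SGK1, had no called difference between groups. They lie at chr18:64887705-65217828 and chr6:125320659-125344943, on the plus strand. Nedd4l had 5.72, 5.96, 5.87, 5.97 and 5.87 in co-housed Xiap-/- crypts, against 5.93, 6.03, 5.86, 5.77 and 5.73 in co-housed WT crypts, with wholly interleaved libraries. The difference was 0.02 ± 0.08 (SE, 95% interval -0.15 to 0.18; limma adjusted p = 0.955), so a genotype difference of the size seen for Sgk1 in the same libraries lies outside its interval. In Xiap-/- crypts of mice housed apart Nedd4l had 5.92, 5.79, 5.89 and 5.90, and co-housing differed from this by 0.00 ± 0.09 (SE, 95% interval -0.17 to 0.18; adjusted p = 0.991). WT crypts of mice housed apart ran between 5.90 and 6.09 with a median of 5.97, the highest median of the 4 groups by a margin within the spread.

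Scnn1a was read at a low level, between 3.76 and 4.32 in all 20 libraries. It had 4.00, 4.00, 4.08, 3.76 and 3.89 in co-housed Xiap-/- crypts, against 3.96, 4.13, 3.81, 3.95 and 4.05 in co-housed WT crypts, a difference of -0.03 ± 0.09 (SE, 95% interval -0.22 to 0.16; limma adjusted p = 0.916). In Xiap-/- crypts of mice housed apart it had 4.10, 4.32, 3.88 and 4.20, and the co-housed libraries differed from these by -0.18 ± 0.10 (SE, 95% interval -0.38 to 0.03; adjusted p = 0.515). Groups overlapped in either comparison. The library with the highest Sgk1, at 8.08, had 4.20 for Scnn1a, and the Xiap-/- library housed apart with Sgk1 at 7.86 had the highest Scnn1a of all 20, at 4.32.

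Slc9a3, the gene of the main sodium-proton exchanger of the brush border (chr13:74121457-74169442, plus strand), had a mean of 2.58, below the minimum of 3.32, and was fitted only with all 23020 genes included. Its levels were 2.64, 2.55, 2.56, 2.47 and 2.47 in co-housed Xiap-/- crypts and 2.44, 2.47, 2.58 and 2.53 in Xiap-/- crypts of mice housed apart. They were 2.67, 2.82, 2.50, 2.92 and 2.59 in co-housed WT crypts and 2.47 to 2.58 with a median of 2.57 in WT crypts of mice housed apart. The 3 highest levels of the 20 were all in co-housed WT crypts. In that wider fit the genotype difference among co-housed mice was -0.16 ± 0.07 (SE, 95% interval -0.30 to -0.02; adjusted p = 0.475), and the housing difference in Xiap-/- mice 0.03 ± 0.07 (adjusted p = 0.954).

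Slc26a3, the chloride-bicarbonate exchanger gene (chr12:31390871-31473917, plus strand), was at a mean of 7.73 and among the steadiest of the group, with a within-group SD of 0.098 against a median of 0.15 over all tested genes. Co-housed Xiap-/- crypts had 7.61, 7.75, 7.76, 7.86 and 7.89, against 7.62, 7.65, 7.66, 7.68 and 7.62 in co-housed WT crypts. The 4 upper Xiap-/- libraries stood above all WT libraries, whose SD was 0.02, and the lowest Xiap-/- library stood below them all. The difference of 0.13 ± 0.08 (SE, 95% interval -0.04 to 0.30) was not called (limma adjusted p = 0.544). Apart, Xiap-/- crypts had 7.71, 7.85, 7.71 and 7.84 and WT crypts 7.59 to 7.90 with a median of 7.76, and the housing difference in Xiap-/- mice was -0.00 ± 0.09 (SE, 95% interval -0.18 to 0.18; adjusted p = 0.994).

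Slc13a2, the sodium-dicarboxylate cotransporter gene (chr11:78397087-78422217, minus strand), had the widest range of the group, between 7.12 and 8.65. Its levels were 7.46, 7.38, 7.64, 7.62 and 7.69 in co-housed Xiap-/- crypts and 7.46, 7.69, 7.93 and 7.57 in Xiap-/- crypts of mice housed apart. In WT crypts they were 7.39, 7.58, 7.32, 7.42 and 7.12 in co-housed mice, against 7.62 to 8.65 with a median of 7.94 in mice housed apart. All 5 co-housed WT libraries lay below all 6 WT libraries housed apart, and the 9 Xiap-/- libraries lay between 7.38 and 7.93 under either housing.

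In WT mice, the contrast for which Slc13a2 was chosen, the means were 7.37 ± 0.17 in co-housed crypts (SD, n = 5) and 8.01 ± 0.36 in crypts of mice housed apart (SD, n = 6), a difference of -0.65 ± 0.13 (SE; 0.639-fold on a plain log2 scale). In Xiap-/- mice the difference of co-housed from apart was -0.10 ± 0.14 (SE, 95% interval -0.39 to 0.18; limma adjusted p = 0.832). An exact two-sided permutation test of it, also chosen after the values were seen, gave p = 0.413 over 126 regroupings. It was 0.413 after adjustment over the 2 tests, and 0.25 to 0.929 unadjusted without each of the 9 libraries in turn. The genotype difference among co-housed mice was 0.19 ± 0.13 (SE, 95% interval -0.08 to 0.46; limma adjusted p = 0.587). Slc13a2 was chosen for being low in the co-housed WT libraries, which favours a positive value here, so this difference is a description. In mice housed apart the genotype difference was -0.35 ± 0.13 (SE). The co-housed genotype difference minus that housed apart came to 0.54 ± 0.19 (SE), which contains the contrast that chose the gene and has no test.

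Cftr, the chloride channel gene (chr6:18170687-18322768, plus strand), averaged 7.45 ± 0.12 in co-housed and 7.28 ± 0.13 in apart Xiap-/- crypts, against 7.51 ± 0.13 in co-housed and 7.48 ± 0.23 in apart WT crypts (SD). Its levels were 7.60, 7.55, 7.34, 7.43 and 7.33 in co-housed Xiap-/- crypts and 7.34, 7.41, 7.12 and 7.24 in those housed apart, and these overlapped. Co-housed WT crypts had 7.58, 7.54, 7.68, 7.37 and 7.39, and WT crypts of mice housed apart ran between 7.14 and 7.72 with a median of 7.48. The genotype difference among co-housed mice was -0.06 ± 0.10 (SE, 95% interval -0.27 to 0.15; limma adjusted p = 0.843), and the housing difference in Xiap-/- mice 0.17 ± 0.11 (SE, 95% interval -0.05 to 0.39; adjusted p = 0.571).

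Atp1b1, the pump subunit gene (chr1:164437109-164458355, minus strand), was the most abundant of the group on this scale, with a mean of 10.86, and lay between 10.66 and 11.14 in all libraries. It had 10.81, 10.75, 10.81, 10.91 and 10.87 in co-housed Xiap-/- crypts, against 10.85, 10.89, 10.83, 10.95 and 10.74 in co-housed WT crypts. The 2 groups overlapped nearly fully, with a difference of -0.02 ± 0.10 (SE, 95% interval -0.22 to 0.17; limma adjusted p = 0.947). Xiap-/- crypts of mice housed apart had 10.98, 10.75, 10.96 and 10.73, from which co-housed Xiap-/- crypts differed by -0.02 ± 0.10 (SE, 95% interval -0.23 to 0.19; adjusted p = 0.959). The 3' end of Atp1b1 is overlapped on the opposite strand by Nme7 (mean 4.73) and that of Slc13a2 by the antisense gene Slc13a2os (mean -2.90), and whether counting used strand is not given in the sources used here.

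**Figure D2:**
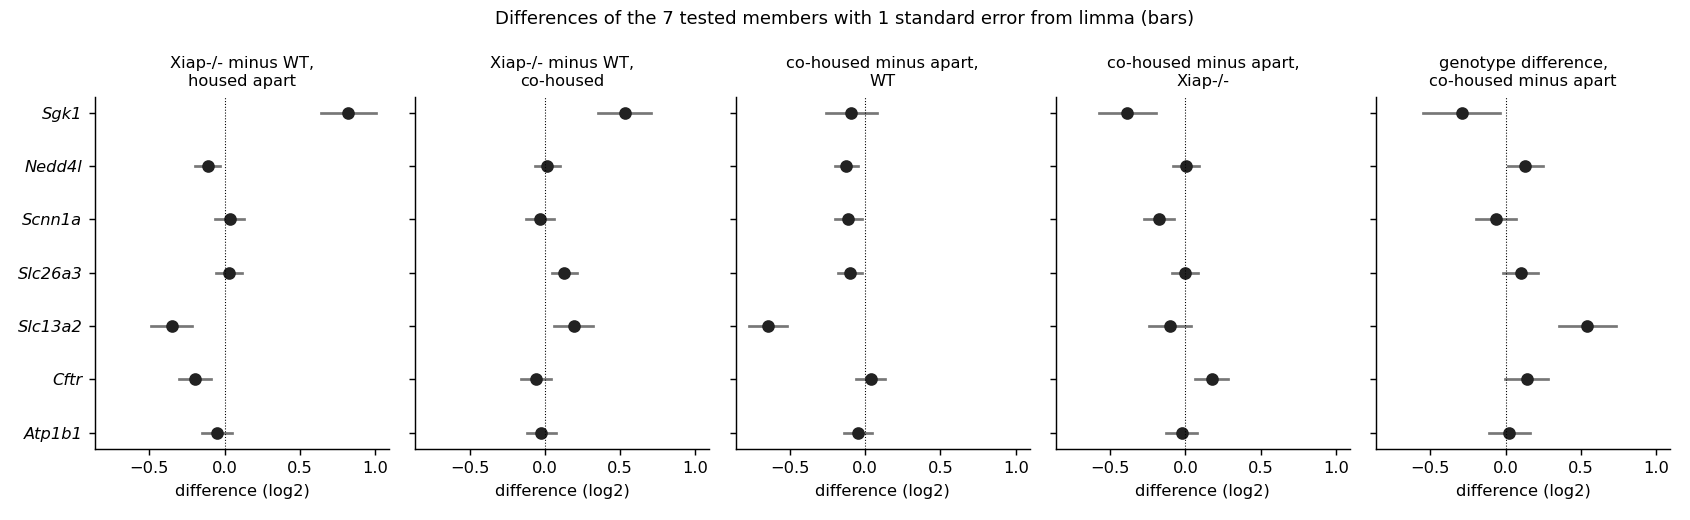
Differences of the 7 tested genes on the log2 scale (horizontal axis) in the 5 comparisons, as points with 1 standard error from the model. Sgk1 at 0.82 and 0.53 for genotype, and Slc13a2 at -0.65 for housing in WT mice, lie far from 0. The contrasts housed apart (Sgk1) and housing in WT (Slc13a2) chose those genes. Slc13a2 at 0.54 for the genotype difference co-housed minus apart contains the contrast that chose it and adds no separate evidence.

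Counted over the 7 tested members, 1 passed an adjusted p of 0.05 in the genotype comparison housed apart, where 0.452% of all tested genes did (28 higher and 15 lower); this was Sgk1, in the contrast that chose it, and the count supports nothing. In co-housed mice 0 of 7 passed for genotype, where 0.0315% of all tested genes did. For housing, 0 of 7 passed in Xiap-/- mice, where 0.147% of all did, and 0 of 7 in WT mice, where 0% did by limma (969 genes had an unadjusted p under 0.05, and the smallest adjusted p was 0.0612). For the genotype by housing interaction 0 of 7 passed, where 0.0105% of all did. Limma's unadjusted p was under 0.05 for 1 of 7 members (Sgk1) in genotype co-housed and 0 of 7 for housing in Xiap-/- mice, against 1144 and 1072 of the 9521 tested genes. A count of 1 of 7 is close to the share over all genes and says nothing about the members. With so few calls over all genes, a member that did not pass is not thereby shown to be level.

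Groups with no overlap between libraries were found for 0 of 7 members in the genotype comparison co-housed (3.09% of all tested genes), 0 of 7 housed apart (1.87%), 0 of 7 for housing in Xiap-/- mice (5.63%) and 1 of 7 for housing in WT mice (0.525%), the last being Slc13a2, which was chosen there. The median difference of the 7 was 0.02 for genotype co-housed, -0.05 for genotype housed apart, -0.10 for housing in WT and -0.02 for housing in Xiap-/- mice, against medians of all tested genes between -0.01 and 0.00. The differences of 4, 3, 3 and 4 of the 7 members in these comparisons were smaller than 1 standard error.

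Within groups, the members did not vary together as one block. The correlation (Pearson r) of deviations from group means over the 20 libraries ran between -0.45 (Scnn1a with Atp1b1) and 0.65 (Slc13a2 with Atp1b1) over the 21 pairs of tested members, with a median of -0.02. Sgk1 with Slc13a2 gave 0.37 and Sgk1 with Cftr -0.42. All such values share the libraries, their depth and their mix of cells, and are given as descriptions without a p. The within-group SD was 0.31 for Sgk1 and 0.24 for Slc13a2, and 0.095 to 0.17 for the other tested members, against the median of 0.15 over all tested genes.

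Among 8840 genes ranked by this measure, those most like Sgk1 were Acot12 (a cytosolic acetyl-CoA thioesterase, r = 0.84), Trim32 (a ubiquitin ligase, 0.82), Lin37 (a subunit of the DREAM complex that represses cell cycle genes, 0.81), Smim8 (0.80) and Angptl4 (a secreted inhibitor of lipoprotein lipase, 0.79). Without the 2 libraries farthest from the median of Sgk1, these r were 0.83, 0.73, 0.80, 0.79 and 0.79. The genes were picked for the highest r of 8840, and these values reuse the same libraries, so they are no separate check. The most opposed were Zbtb21 (-0.83), Usp5 (-0.81) and Mlph (-0.80). No other member of the group was among them.

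Slc13a2 deviated most like Slc9a3r1 (the scaffold NHERF1, which anchors NHE3 and other brush border transporters, r = 0.86), Slc5a1 (the sodium-glucose cotransporter SGLT1, 0.85), H2-T3 (a nonclassical MHC class I gene, 0.84), Lct (lactase, 0.83) and Ctsa (a lysosomal carboxypeptidase, 0.82). Without the 2 libraries farthest from the median of Slc13a2, these r were 0.73, 0.72, 0.69, 0.53 and 0.62, so they lean in part on those libraries. These genes too were picked for their high r in the same libraries. Atp1b1 stood at number 183 of 8840 and had 0.49 without them. The most opposed genes were Otud6b (-0.83), Akt1 (-0.78) and Dopey1 (-0.78). Slc5a1 and Lct are among the markers of absorptive cells used below.

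**Figure D3:**
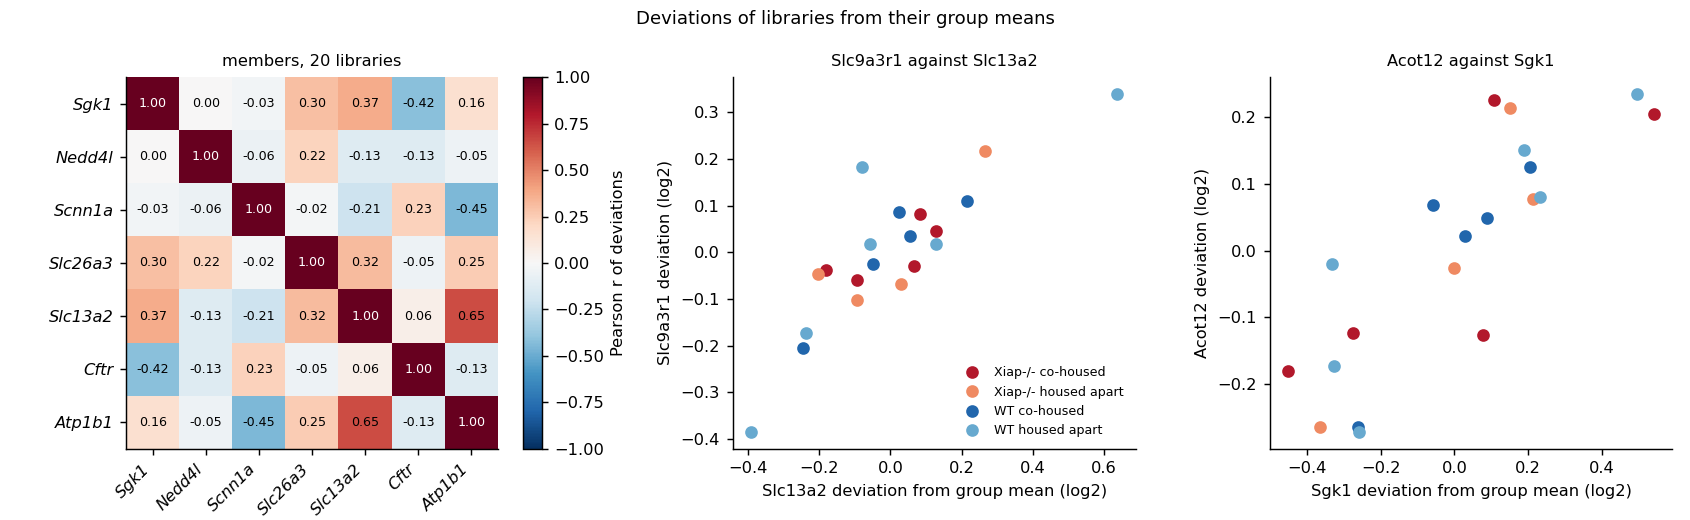
Left, Pearson r of deviations from group means over 20 libraries for each pair of the 7 tested genes; middle and right, the deviations on the log2 scale, 1 point a library coloured by group, of Slc9a3r1 against Slc13a2 and of Acot12 against Sgk1. Pairs of members run between -0.45 and 0.65, while the points run along a diagonal for Slc9a3r1 (r = 0.86, with 1 WT library housed apart far to the right) and for Acot12 (r = 0.84). Slc9a3r1 and Acot12 were picked for their high r in these libraries.

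Markers of other cell types were read beside these levels, since with bulk RNA fewer cells of a type and less RNA per cell cannot be told apart. All 12 absorptive cell markers were over the minimum, and their summed level ran between 15.27 and 15.61 in co-housed Xiap-/-, 15.43 and 15.94 in apart Xiap-/-, 15.35 and 15.54 in co-housed WT and 15.25 and 15.98 in apart WT crypts. The 6 ileal markers ran between 12.46 and 12.90 in co-housed Xiap-/-, 12.30 and 12.78 in apart Xiap-/-, 11.65 and 12.82 in co-housed WT and 12.53 and 13.02 in apart WT crypts. The 8 T cell markers ran between 9.84 and 10.96 in co-housed Xiap-/-, 10.24 and 11.08 in apart Xiap-/-, 9.58 and 10.37 in co-housed WT and 10.05 and 10.96 in apart WT crypts. The 9 stem and dividing cell markers ran between 10.06 and 10.35 in co-housed Xiap-/-, 9.73 and 10.27 in apart Xiap-/-, 10.14 and 10.34 in co-housed WT and 9.92 and 10.35 in apart WT crypts. These 4 lists overlapped between all groups.

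Of 6 B and plasma cell markers 3 were over the minimum, and their summed level averaged 5.93 ± 0.33 in co-housed and 5.53 ± 0.09 in apart Xiap-/- crypts, against 5.93 ± 0.50 in co-housed and 6.15 ± 0.46 in apart WT crypts (SD). In the contrast where Sgk1 was chosen, the Xiap-/- libraries were thus lower in this sum, at 5.45 to 5.65, against 5.52 to 6.76 in WT libraries. The Paneth cell product Defa24, a crypt marker, averaged 14.17. Of 8 stromal and endothelial markers only Vim was over the minimum, and of 6 hepatocyte markers only Ttr was, at 4.11, while the extraction text of the labels speaks of liver. The hepatocyte marker Alb averaged -2.70 and reached at most -2.66 in any library. Serpina1c averaged -0.31 and Cyp2e1 0.02, so the hepatocyte sum rests mainly on Ttr and Apoa2 (mean 2.80). The summed hepatocyte markers ran between 4.59 and 4.83 in co-housed Xiap-/-, 4.82 and 5.00 in apart Xiap-/-, 4.49 and 4.77 in co-housed WT and 4.39 and 4.83 in apart WT crypts. Among mice housed apart, this sum averaged 4.95 ± 0.09 in Xiap-/- and 4.61 ± 0.15 in WT crypts (SD), with a narrow overlap. The part of these markers in the Sgk1 and Slc13a2 differences was not tested.

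The wider pathway was read from 6 lists with 87 genes in all, of which 79 had a row and 67 were tested. Of the 67, 1 passed in the genotype comparison housed apart and 0 in each of the other 4 comparisons by limma. An unadjusted p under 0.05 was found for 15 of the 67 in genotype co-housed (1144 of all 9521 tested genes) and 16 in genotype apart (1506 of all). It was found for 12 in housing of Xiap-/- mice (1072 of all), 15 in housing of WT mice (969 of all) and 9 in the difference between genotype differences (671 of all). The passing gene was Sgk2 (chr2:162987330-163014127, plus strand), a kinase closely related to SGK1, and it fell in Xiap-/- crypts. Sgk2 had 3.86, 3.66, 3.87 and 3.64 in Xiap-/- crypts housed apart, against 3.93 to 4.35 with a median of 4.19 in WT crypts housed apart, and the groups did not overlap. The difference was -0.40 ± 0.10 (SE; limma adjusted p = 0.0492), and in co-housed mice it was -0.09 ± 0.09 (adjusted p = 0.726). The call for Sgk2 remained in 3 of the 20 fits that each left out 1 library (differences -0.45 to -0.36, adjusted p 0.00836 to 0.185). It was lost with median centring (adjusted p = 0.0540), with only the groups compared in the fit (0.147) and with the depth proxy as a covariate (difference -0.33, adjusted p = 0.796).

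The list on sodium channel control and glucocorticoid response held 23 tested genes. Its median difference was -0.05 for genotype in either housing, and 8 of 23 differences lay above 0 in co-housed mice. Of the 23, Tsc22d3, Fkbp5, Cnksr3 and Ndrg1 had co-housed Xiap-/- libraries all above the co-housed WT libraries, and Klf9 and Rictor all below, while 3.09% of all tested genes did not overlap there. Housed apart, Usp2, whose product removes ubiquitin, and Sgk2 had Xiap-/- libraries all below the WT libraries, while 1.87% of all tested genes did not overlap. These genes other than Sgk2 are named for their values, and Tsc22d3 and Ndrg1 are described further on the same ground.

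Tsc22d3 encodes GILZ, a protein induced by glucocorticoids. Its levels were 6.88, 6.76, 7.06, 6.94 and 7.02 in co-housed Xiap-/- crypts, against 6.55, 6.45, 6.56, 6.65 and 6.58 in co-housed WT crypts, without overlap. The difference was 0.37 ± 0.09 (SE; limma adjusted p = 0.101), and housed apart it was 0.32 ± 0.09 (SE; adjusted p = 0.101) with overlap. Fkbp5, another gene that glucocorticoids induce, differed by 0.31 ± 0.10 in co-housed mice (SE, limma adjusted p = 0.193) and by -0.14 housed apart. Klf9, also on this list, averaged 5.53 ± 0.03 and 5.38 ± 0.29 in co-housed and apart Xiap-/- crypts (SD). In WT crypts Klf9 was higher, at 5.79 ± 0.22 co-housed and 5.67 ± 0.27 apart (SD). Per1 averaged 3.50 and 3.56 in co-housed and apart Xiap-/- crypts, against 3.49 and 3.50 in WT crypts. In Xiap-/- crypts the mean of Tsc22d3 was higher in either housing, that of Fkbp5 only in co-housed mice, and that of Klf9 lower in either. These genes were picked after their values were seen, and a part of glucocorticoids in the Sgk1 difference was not tested.

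Ndrg1 encodes a protein that SGK1 phosphorylates, so its transcript level does not read SGK1 activity. It had 8.15, 7.83, 7.78, 7.76 and 7.86 in co-housed Xiap-/- crypts, against 7.58, 7.47, 7.39, 7.44 and 7.52 in co-housed WT crypts, without overlap. The genotype difference was 0.40 ± 0.10 (SE; limma adjusted p = 0.134) in co-housed mice and 0.33 ± 0.11 (SE; adjusted p = 0.134) housed apart. Co-housed crypts differed from those housed apart by -0.43 ± 0.11 in Xiap-/- mice (SE, limma adjusted p = 0.106) and by -0.50 ± 0.10 in WT mice (SE, limma adjusted p = 0.0612). In either genotype the libraries did not overlap, while 5.63% of all tested genes did not overlap in Xiap-/- mice and 0.525% in WT mice. None of these passed in the model used here, and each passed under some alternative settings.

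In the 9 tested genes of sodium-proton exchange, 0 passed in any comparison. The 2 most abundant were Slc9a3r1 and Ezr, whose product ezrin ties NHE3 complexes to actin. Slc9a3r1 averaged 10.24 ± 0.06 and 10.18 ± 0.15 in co-housed and apart Xiap-/- crypts, against 10.17 ± 0.13 and 10.50 ± 0.26 in co-housed and apart WT crypts (SD). The apart WT libraries were the highest as a group, as for Slc13a2. Differences of Slc9a3r1 were 0.08 for genotype co-housed (limma adjusted p = 0.809), -0.33 ± 0.11 for genotype apart (SE; 0.148) and -0.34 ± 0.10 for housing in WT (SE; 0.312). Ezr averaged 10.05 ± 0.08 and 10.06 ± 0.05 in co-housed and apart Xiap-/- crypts, against 9.97 ± 0.11 and 10.14 ± 0.25 in co-housed and apart WT crypts (SD).

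Of the 10 tested genes of anion exchange and carbonic anhydrases, 0 passed. Car4, a membrane-bound carbonic anhydrase, averaged between 8.07 and 8.17 in the 4 groups, and Slc26a2, a sulfate transporter, between 7.90 and 8.11. Among 5 genes of dicarboxylate, sulfate and phosphate uptake 0 passed, and Slc34a2, the intestinal phosphate cotransporter, averaged between 7.26 and 7.42 in the 4 groups. Slc13a1, a sulfate cotransporter and the relative of Slc13a2, averaged 7.17 ± 0.12 in co-housed Xiap-/- and 7.45 ± 0.19 in co-housed WT crypts (SD, n = 5 each), a difference of -0.28 ± 0.11 (SE; limma adjusted p = 0.317). For housing in WT mice Slc13a1 differed by 0.20 ± 0.11 (SE), on the other side of 0 from Slc13a2.

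Among 16 genes of chloride secretion and its control, 0 passed. Guca2a and Guca2b, which encode the peptides guanylin and uroguanylin that raise cyclic GMP and open CFTR, averaged 10.26 ± 0.22 and 11.80 ± 0.23 in co-housed Xiap-/- crypts, against 10.75 ± 0.28 and 12.30 ± 0.21 in apart Xiap-/- crypts (SD). These were differences of -0.50 ± 0.17 and -0.50 ± 0.18 (SE, limma adjusted p = 0.275 and 0.287). For Guca2b the libraries did not overlap, while 5.63% of all tested genes did not overlap there. Of the same list, Clcn2 was also lower without overlap in co-housed Xiap-/- crypts, and Kcnq1 and Ptger4 were higher without overlap. In WT mice Guca2a averaged 9.94 ± 0.22 in co-housed and 10.36 ± 0.38 in apart crypts (SD), and Guca2b averaged 11.66 ± 0.15 in co-housed and 12.01 ± 0.46 in apart crypts. The means of the peptide genes were lower in co-housed crypts of either genotype, and no difference passed in the model used here.

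Of 4 tested genes of the ATPases 0 passed. Fxyd3, a regulator of the pump, averaged 5.81 ± 0.11 and 5.80 ± 0.05 in co-housed and apart Xiap-/- crypts, against 5.62 ± 0.15 and 5.88 ± 0.16 in co-housed and apart WT crypts (SD). Over all 67 genes the median difference was -0.01 for genotype co-housed, -0.06 for genotype apart, -0.04 for housing in WT and 0.03 for housing in Xiap-/- mice.

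**Figure D4:**
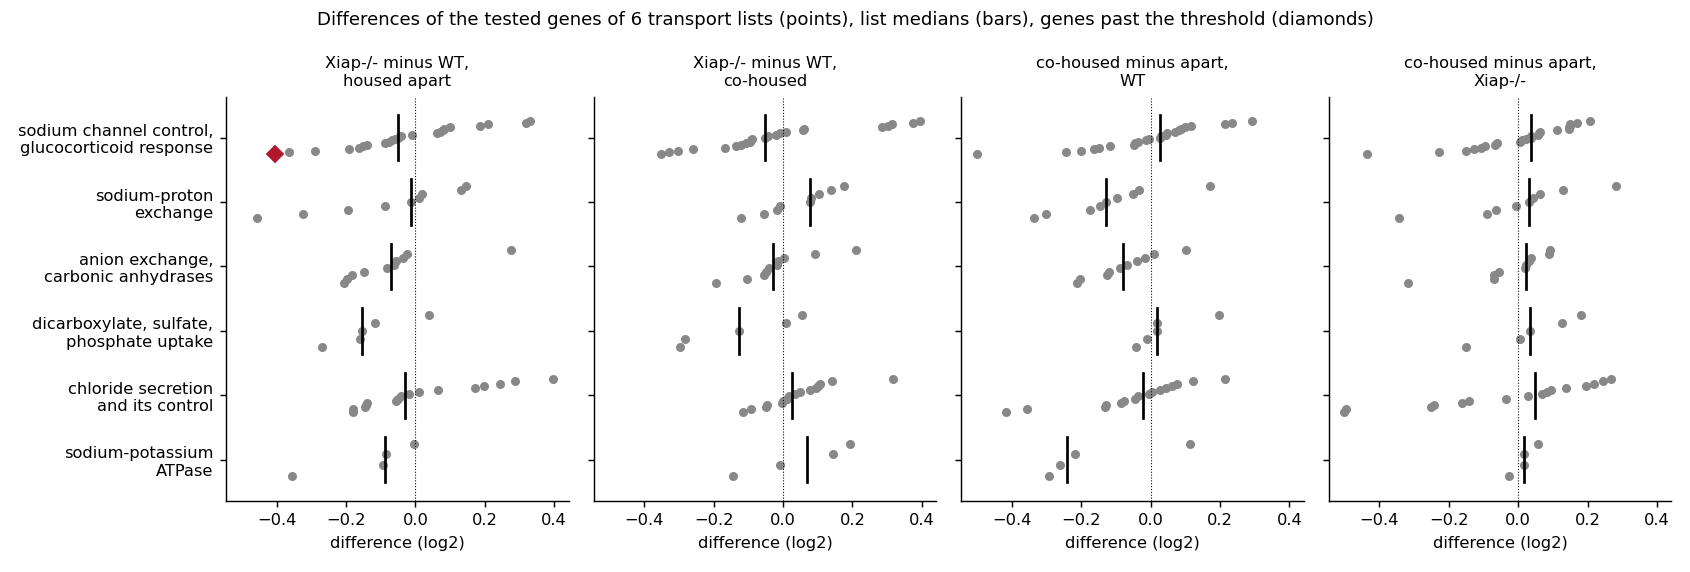
Differences of the 67 tested pathway genes on the log2 scale (horizontal axis) in 4 comparisons, 1 point a gene, by list, with the list's median as a bar and a diamond for a gene past the threshold. Points lie on both sides of 0 in every list but the ATPases for genotype housed apart, and the only gene that passed, Sgk2, is at -0.40 for genotype housed apart.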

How the data were processed

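The authors deposited 1 normalized value on a log2 scale for each of 23020 genes in each library (lowest -3.88, highest 16.30). The submitters' processing notes name DESeq2 1.18.1 and the build GRCm38.p6; the transformation, aligner and counting are not given in the sources used here. Counts are not in the values, so depth is unknown, no counting interval is given, and low genes may be shrunken. Depth was approximated per library by how many rare genes (mean below -3) stood at least 0.015 above their plateau.

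The log2 values deposited were analysed as they stand with limma 3.58.1 in R 4.3.3: 1 model of 4 group means over all 20 libraries, variance trend, robust moderation and 16 residual degrees of freedom. Genes with a mean of at least 3.32 (log2 of 10) were tested, 9521 in all, two-sided, with Benjamini-Hochberg adjustment over all of them and a threshold of 0.05. Errors of differences are model standard errors, and of means SD over mice. The labels do not say that mice came from separate cages, so p-values measure only the spread between these samples. The model was tested on simulated data.

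Members and gene lists were chosen with earlier results of these data known. All members are named, and of each list the genes that passed or, where none did, the 2 of highest mean; for Sgk1 and Slc13a2 the 5 most and 3 least like genes are named. 1 gene that the rule names is not reported here. Other named genes were chosen after their values were seen, as were the 2 exact permutation tests. Alternatives were other filters, an added 1, median centring, quantile normalization, only the groups compared, no robust moderation, library weights, replicate number as a block, the depth proxy, and each library left out.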

Additional observations from a re-analysis of the deposited data

Results flagged for a closer look

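Of 32 checks of a gene in a group, 1 library stood apart by the gap test for small groups. For Slc9a3 in WT crypts of mice housed apart, replicate 1 was the lowest of the 6 libraries at 2.47, and the others lay between 2.56 and 2.58. Chance marks about 1 in 20 groups by this test, and Slc9a3 was below the minimum for testing in all groups.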

How the results depend on the processing

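The number of genes passing over the whole table depended on the settings, and the cause was not tested. For genotype housed apart it was 43, and 27 at a minimum mean of 5, 12 with only the groups compared, 66 without robust moderation, 385 with library weights, 350 with the replicate block, 3 with the depth proxy and 9 to 697 without each library. For genotype co-housed it was 3, and 10 with no filter, 0 at the minimum of 5, 142 with only the groups compared, 159 with library weights and 1 to 12 without each library. For housing in Xiap-/- mice it was 14, and 9 at the minimum of 5, 169 with only the groups compared, 22 without robust moderation, 224 with weights, 189 with the block, 1 with the depth proxy and 2 to 64 without each library. For housing in WT it was 0, and 5 with no filter, 5 with weights and 0 to 66 without each library. For the interaction it was 1, and 0 at the minimum of 5, 4 with weights, 10 with the block and 1 without each library.

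Members passing were 1 for genotype housed apart, and 0 with no filter, with median centring and with the depth proxy, and 0 to 1 without each library. The Sgk1 difference there was 0.67 to 0.93 over the 10 settings and 0.75 to 0.94 without each library. Its call remained in 7 of the 20 fits that each left out 1 library. Members passing for housing in WT were 0, and 1 with no filter or weights and 0 to 1 without each library. Slc13a2 there was -0.72 to -0.52 without each library. The differences of Sgk1 and Slc13a2 in these contrasts chose them and are descriptions. In the other comparisons 0 members passed under every setting run. Sgk1 for genotype co-housed was 0.39 to 0.64 without each library (limma adjusted p 0.122 to 0.591). Of the other named genes, Tsc22d3 and Ndrg1 each passed in 2 of the 10 settings for genotype co-housed and in 2 for genotype apart, and Ndrg1 in 3 for housing in Xiap-/- and 2 for housing in WT. Slc9a3r1 passed in 1 for genotype apart, and Guca2b in 2 and Guca2a in 1 for housing in Xiap-/-.

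Small differences of members that were not called took the other sign in some settings. With the depth proxy, these were Scnn1a (-0.062), Slc26a3 (-0.024) and Atp1b1 (0.021) for genotype in mice housed apart, Nedd4l (-0.025) and Slc26a3 (0.044) for housing in Xiap-/-, and Scnn1a (0.029) and Atp1b1 (-0.044) for the interaction. With quantile normalization, they were Atp1b1 for genotype housed apart (0.00044), housing in WT (0.11) and the interaction (-0.15), and Nedd4l (-0.0096) and Slc26a3 (0.028) for housing in Xiap-/-. Others were Nedd4l with median centring (-0.0016) and Atp1b1 with library weights (0.029) for housing in Xiap-/-, and Atp1b1 with the replicate block (-0.017) for the interaction.

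Leaving out 1 library at a time gave ranges that crossed 0 for Scnn1a (-0.033 to 0.11) and Slc26a3 (-0.0033 to 0.059) in the genotype difference housed apart, and for Nedd4l (-0.016 to 0.058), Scnn1a (-0.075 to 0.015) and Atp1b1 (-0.052 to 0.0011) in that of co-housed mice. So did Sgk1 (-0.16 to 0.0063) and Cftr (-0.031 to 0.085) for housing in WT, and Nedd4l (-0.025 to 0.043), Slc26a3 (-0.032 to 0.038) and Atp1b1 (-0.067 to 0.018) for housing in Xiap-/-. For the interaction these were Scnn1a (-0.15 to 8.8e-05) and Atp1b1 (-0.023 to 0.073).

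Replicate number was not taken as a pairing in the main model. Of 27 pairs of same-numbered libraries from different groups, 10 had deviations correlated over 0.1 (median r 0.01, range -0.42 to 0.36). Of 122 pairs with other numbers, 33 did (median r -0.01, range -0.51 to 0.41). Whether same-numbered mice shared a cage or batch was not tested. Depth is unknown, so it cannot be said which low genes, such as Slc9a3 and Scnn1a, were read too thinly to show a difference.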
